A study of Mus musculus with 2 samples.

Results

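Transcripts of 10 genes of the interleukin-12 (IL-12) and interleukin-6 (IL-6) families were examined in M1-like bone marrow derived macrophages (BMDMs) of FRβ KO and WT mice. The genes were taken by name, by matching the gene identifiers of the count table to mouse symbols. They were the cytokine chain genes *Il12a*, *Il12b*, *Il23a*, *Il27* and *Ebi3*, the ligand genes *Il6* and *Lif*, and the receptor chain genes *Il6ra*, *Il6st* and *Osmr*. All 10 were found among the 54532 identifiers of the table.

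The FRβ KO cells came from male C57BL/6 mice in which a neomycin resistance gene interrupts *Folr2*, the gene of folate receptor β (FRβ), with the allele crossed onto C57BL/6 from SWV mice. The WT cells came from male C57BL/6 mice. Marrow of both genotypes was kept in regular RPMI 1640 medium with 10% FBS, with the macrophage growth factor M-CSF at 20 ng/mL for 7 days. A further 24 hours with interferon γ (IFNγ, 20 ng/mL) and bacterial lipopolysaccharide (LPS, 1 ng/mL) made them M1-like. The RNA of 3 mice was combined into 1 library for each genotype, according to the methods, so no difference has a replicate check. WT mice of the study were bought from a supplier and FRβ KO mice bred in house, so the allele, its SWV background and the breeding cannot be told apart. The methods give an age for WT mice at purchase and for mice of both genotypes in a lung fibrosis experiment, but none at marrow harvest.

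The libraries held 19742619 counts in FRβ KO and 18871271 in WT. *Folr2* had 2 counts in FRβ KO and 0 in WT, so the disrupted gene checks neither label in these cells. All 8 macrophage markers were detected in both libraries, with 3 KO/WT intervals above 1 and 4 below 1. Their summed level, in counts per 1000000 library counts (CPM), was 17481.5 CPM in FRβ KO and 19808 CPM in WT. Most of it came from *Lyz2*, at 13787.2 CPM in FRβ KO and 16361.2 CPM in WT. The sums therefore give no direction for the other macrophage markers. The 8 markers of M1-like activation summed to 12033.4 CPM in FRβ KO and 13751.9 CPM in WT. Intervals of 2 of them lay above 1 (*Cd86* and *Cd80*) and 6 below 1. Most of this sum came from *Gbp2*, at 7394 CPM in FRβ KO and 8689 CPM in WT, so the sum largely follows that gene. Over all genes tested, 14.7% had an interval above 1 and 16.8% below 1, and these shares rose with the counts. Several markers of these lists, such as *Lyz2*, *Gbp2* and *Nos2*, had more counts than any range for which a share was taken. Whether the calls of the macrophage and M1-like lists exceed those of genes counted as often was not tested. The 7 T and NK cell markers summed to 1.201 CPM in FRβ KO and 1.502 CPM in WT, and *Cd3d*, *Cd3g*, *Cd8a* and *Ncr1* had 0 counts in both. The 5 B cell markers summed to 0.5002 CPM in FRβ KO and 0.912 CPM in WT, and the 6 stromal markers to 3.602 CPM in FRβ KO and 4.51 CPM in WT.

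IL-12 family cytokines are secreted as pairs of chains. IL-12 joins the p35 chain (*Il12a*) to the p40 chain (*Il12b*), IL-23 joins the p19 chain (*Il23a*) to the same p40, and IL-27 joins the p28 chain (*Il27*) to EBI3 (*Ebi3*). Macrophages and dendritic cells make them after contact with microbial products, and IL-12 and IL-27 act on T and NK cells. IL-6 and LIF belong to a family whose receptors share the signalling chain gp130 (*Il6st*). IL-6 first binds its own receptor chain (*Il6ra*), and oncostatin M and LIF signal through gp130 together with *Osmr* or *Lifr*. In macrophages LPS switches on *Il6* and *Il12b* through NF-κB, and IFNγ raises the output of *Il12b*.

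The promoters of *Il12b*, *Ebi3* and *Il6* are shown because these genes had higher counts in FRβ KO, and that of *Il6st* because its level was close in both libraries. *Il12a*, also higher in FRβ KO but on few counts, is not shown. Each window runs from 250 bases before to 50 bases after the RefSeq start site (GRCm38.p6) and is printed 5′ to 3′, with motif matches in capitals.
*Il12b*, chr11:44399813-44400112, plus strand: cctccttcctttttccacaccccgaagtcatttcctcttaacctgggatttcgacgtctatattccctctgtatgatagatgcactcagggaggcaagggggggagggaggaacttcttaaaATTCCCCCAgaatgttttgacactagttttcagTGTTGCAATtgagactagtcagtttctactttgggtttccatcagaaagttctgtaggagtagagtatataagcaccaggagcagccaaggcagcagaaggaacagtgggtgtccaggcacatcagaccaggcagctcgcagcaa
*Ebi3*, chr17:55952373-55952672, plus strand: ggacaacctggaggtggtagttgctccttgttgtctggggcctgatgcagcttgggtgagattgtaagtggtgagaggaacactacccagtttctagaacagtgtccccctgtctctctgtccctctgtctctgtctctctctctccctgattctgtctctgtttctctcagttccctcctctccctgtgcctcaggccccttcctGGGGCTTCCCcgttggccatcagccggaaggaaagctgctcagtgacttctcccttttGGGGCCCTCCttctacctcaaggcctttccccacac
*Il6*, chr5:30012864-30013163, plus strand: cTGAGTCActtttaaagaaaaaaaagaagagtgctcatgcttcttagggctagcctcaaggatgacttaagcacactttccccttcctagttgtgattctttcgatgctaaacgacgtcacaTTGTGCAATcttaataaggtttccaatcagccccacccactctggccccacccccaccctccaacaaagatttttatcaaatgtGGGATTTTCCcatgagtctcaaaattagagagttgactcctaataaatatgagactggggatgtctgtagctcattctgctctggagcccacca
*Il6st*, chr13:112463820-112464119, plus strand: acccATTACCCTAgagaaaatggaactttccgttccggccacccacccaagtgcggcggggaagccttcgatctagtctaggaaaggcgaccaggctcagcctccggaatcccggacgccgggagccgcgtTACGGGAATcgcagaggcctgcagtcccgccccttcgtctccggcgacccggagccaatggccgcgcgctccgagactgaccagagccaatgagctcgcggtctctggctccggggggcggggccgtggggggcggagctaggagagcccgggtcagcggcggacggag

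Of the 10 genes, 8 had a window in the RefSeq promoter table, and *Il12a* had 2. Both strands were searched for 5 motifs, which were the NF-κB decamer consensus, the C/EBP motif TNNNGNAAT, the AP-1 motif TGANTCA, the interferon-stimulated response element and the STAT motif TTCNNNGAA. The NF-κB decamer was present in *Ebi3*, *Il6* and *Lif*, against 8.46% of 32851 promoter windows of the same length. In the *Il6* promoter it began 44 bases before the start site, and in *Ebi3* one match began 44 bases before it and another 14 bases after it. The C/EBP motif, found in 32.2% of all windows, was present in *Il12b*, *Il6*, *Il6ra*, *Il6st* and *Osmr*. The AP-1 motif, found in 7.81% of all windows, was present in *Il6*, *Osmr* and *Lif*. The interferon-stimulated response element (3.44% of all windows) and the STAT motif (8.3% of all windows) matched in 0 of the 8 genes, and no match overlapped another motif. Neither window of *Il12a* matched any of the 5 motifs. A match describes the letters of the window and is not a site shown to be bound. Only these exact patterns were searched, so a missing match, such as the NF-κB decamer in *Il12b*, does not show that a site is absent.

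*Il12b*, *Ebi3*, *Il6* and, on few counts, *Il12a* had higher levels in FRβ KO and *Il27* a lower one. The receptor chains *Il6ra* and *Il6st* were near equal. For each gene the ratio of the FRβ KO count to the WT count was taken after scaling the library sizes by edgeR's trimmed mean of M values (TMM), with an exact 95% interval from the pair of counts. Taking both libraries together, 9 of the 10 genes reached 10 counts, and of these 4 had an interval wholly above 1 (*Il12a*, *Il12b*, *Ebi3* and *Il6*), 1 had an interval wholly below 1 (*Il27*), and 4 had an interval that held 1 (*Il23a*, *Il6ra*, *Il6st* and *Lif*). Over all 14489 genes that reached 10 counts, 14.7% had an interval above 1 (2137 genes) and 16.8% below 1 (2429 genes). Which side was larger depended on the scaling, with 2813 above and 1907 below when libraries were scaled by total counts and 2374 above and 2235 below with DESeq2 size factors, while the members stayed at 4 above and 1 below. None of the 9 had its whole interval past 2-fold (0 higher and 0 lower), a rule passed by 0.311% of all genes on the higher side and 0.407% on the lower side. The point ratio was above 1 for 7 of the 9 and for 49% of all genes. The median log2 ratio was 0.28 over the 9 genes and -0.01 over all genes tested. That median of the 9 is the value of *Lif*, whose own interval held 1. The intervals cover counting error only, and nothing here measures the spread between mice.

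**Figure D1:**
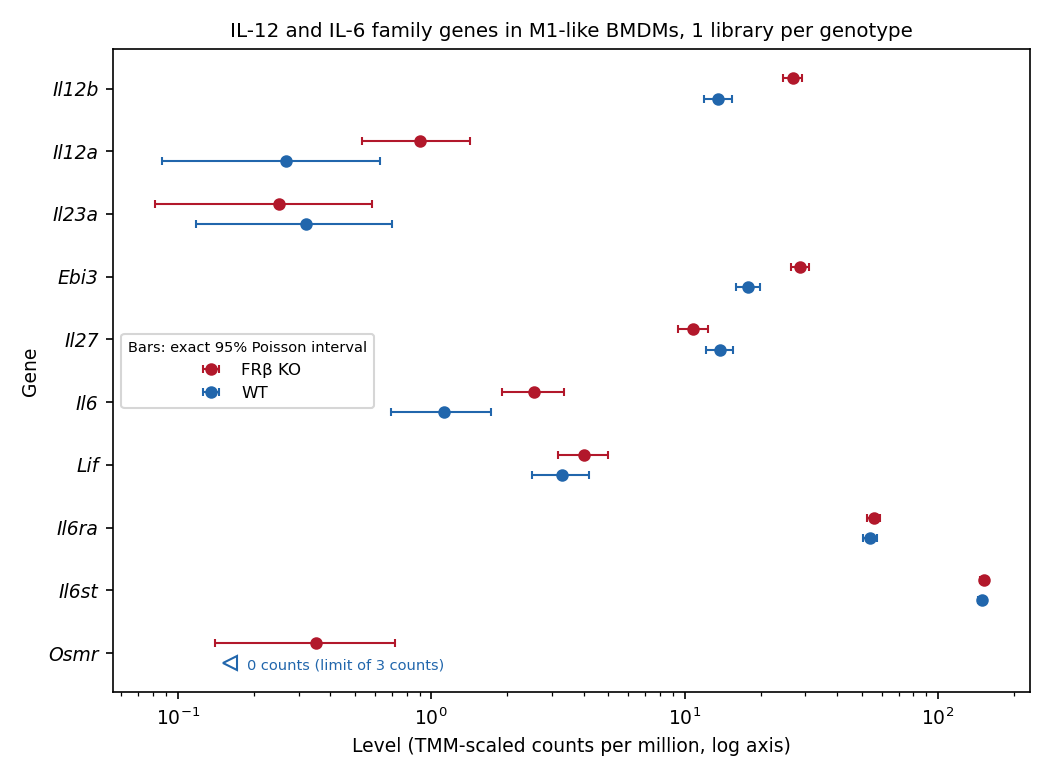
Levels of the 10 genes in TMM-scaled CPM (log axis), with the FRβ KO library in red above the WT library in blue. Bars are exact 95% Poisson intervals of 1 count each, and the intervals of the libraries lie apart for *Il12b*, *Ebi3* and *Il6*, with *Osmr* at 0 counts in WT drawn at the limit of 3 counts.

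*Il12b*, encoding the p40 chain that IL-12 and IL-23 share, had 533 counts in FRβ KO and 253 in WT. Its level was 26.7 CPM (24.5 to 29.0) in FRβ KO, above the 13.6 CPM (11.95 to 15.4) of WT, and the intervals did not overlap. The KO/WT ratio was 1.96 (1.69 to 2.29), and 436 of the 14489 genes tested had a higher log2 ratio. *Il12b* lies on chromosome 11 of mm10 from 44400063 to 44414033 on the plus strand, and no other annotated gene overlaps it.

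*Il12a*, encoding the p35 chain that only IL-12 (and the EBI3 partner cytokine IL-35) uses, was rare in both libraries. It had 18 counts in FRβ KO and 5 in WT, which are 0.900 CPM and 0.268 CPM in these libraries. The ratio was 3.36, and its interval of 1.201 to 11.6 is wide because of the few counts, and at 99% it held 1. *Il12a* lies on chromosome 3 from 68690644 to 68698547. *Il23a*, encoding the p19 chain of IL-23 on chromosome 10 (128296139 to 128298752), had 5 counts in FRβ KO and 6 in WT, and its ratio of 0.777 had an interval of 0.188 to 3.06. A difference in *Il23a* within those bounds was not detectable at this depth.

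*Ebi3*, the shared partner chain of IL-27, had 573 counts in FRβ KO and 332 in WT, or 28.7 CPM (26.4 to 31.1) in FRβ KO against 17.8 CPM (15.95 to 19.8) in WT. Its ratio was 1.61 (1.40 to 1.85). *Il27*, encoding the p28 chain that is particular to IL-27, went the other way, with 216 counts in FRβ KO and 257 in WT and a ratio of 0.784 (0.651 to 0.943). The levels of *Il27* were 10.8 CPM (9.41 to 12.4) in FRβ KO and 13.8 CPM (12.2 to 15.6) in WT, and these intervals overlap narrowly. The one member below 1 beyond counting error thus encodes the partner chain of a member above 1.

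Annotated neighbours overlap both IL-27 chain genes, and since the strand setting of the counting was not given in the sources used here, reads in the overlaps cannot be told apart. *Ebi3*, on chromosome 17 from 55952640 to 55957022, overlaps the antisense gene *Gm16712* by 2252 bases of gene span, introns included. The longest stretch found in transcripts of both was 158 bases, beside 1154 exon bases of *Ebi3*. *Gm16712* had 32 counts in FRβ KO and 27 in WT. *Il27*, on chromosome 7 from 126589010 to 126594941, shares 103 bases with *Apobr* on the opposite strand, which had 2644 counts in FRβ KO and 2718 in WT (ratio 0.907, 0.859 to 0.957). *Il27* lies on the same chromosome as *Folr2* and 24.7 Mb away from it.

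**Figure D2:**
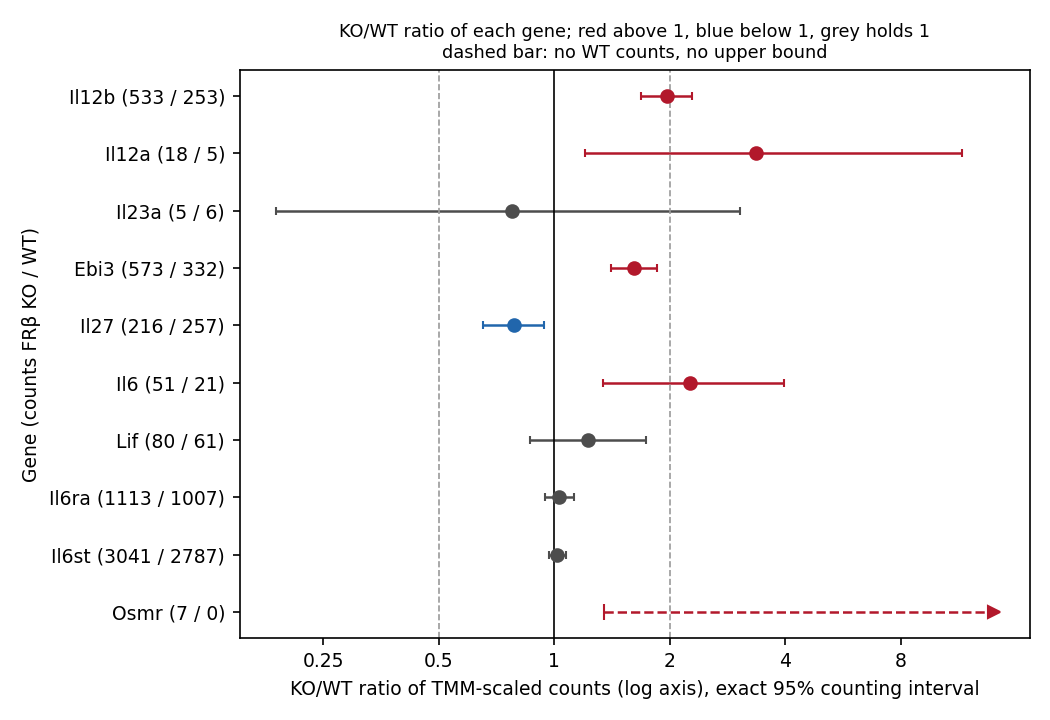
KO/WT ratio of TMM-scaled counts for each gene (log axis) with its exact 95% counting interval, and the counts of FRβ KO and WT beside each name. Intervals of *Il12b*, *Il12a*, *Ebi3* and *Il6* lie above 1, that of *Il27* lies below 1, no tested gene clears the dashed lines at 2-fold with its whole interval, and the dashed bar of *Osmr* has no upper bound.

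*Il6*, encoding the ligand IL-6 that drives fever and acute phase responses, had 51 counts in FRβ KO and 21 in WT. The level was low in both, at 2.55 CPM (1.90 to 3.35) in FRβ KO and 1.13 CPM (0.698 to 1.72) in WT, with intervals that did not overlap. The ratio was 2.26 (1.34 to 3.96), and 334 of all genes tested had a higher log2 ratio. *Il6* lies on chromosome 5 from 30013114 to 30019981. *Lif*, encoding leukemia inhibitory factor on chromosome 11 (4257557 to 4272514), had 80 counts in FRβ KO and 61 in WT, and its ratio of 1.22 had an interval of 0.865 to 1.74 that holds 1.

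The receptor chain genes *Il6st* and *Il6ra* had the most counts of the 10 genes. *Il6st*, encoding gp130, had 3041 counts in FRβ KO and 2787 in WT, with a ratio of 1.02 (0.966 to 1.07). *Il6ra*, encoding the chain that binds IL-6, had 1113 counts in FRβ KO and 1007 in WT, with a ratio of 1.03 (0.945 to 1.12). At this depth a difference within those intervals was not detectable. *Il6st* lies on chromosome 13 from 112464070 to 112510086. *Il6ra* lies on chromosome 3 from 89864059 to 89913196 and overlaps the antisense gene *Gm42809*, which had 3 counts in FRβ KO and 0 in WT.

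*Osmr*, encoding the oncostatin M receptor chain on chromosome 15 (6813577 to 6874969), had 7 counts in FRβ KO and 0 in WT. It has fewer than 10 counts in all and was left out of the numbers above. The limit set by a zero (3 counts) equals 0.161 CPM for the WT library, so the level of 0.350 CPM in FRβ KO is at least 2.18-fold higher when the FRβ KO count is taken as exact, and the exact interval of the ratio begins at 1.34. Fibroblasts are well known to express *Osmr*. Of the 6 stromal markers, whose summed levels are given above, 3 were tested and all 3 intervals held 1, and *Lum* had 0 counts in both libraries. Their part in the *Osmr* counts was not tested.

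How far a ratio lies from 1 depends on how well a gene is counted, so the members were also read beside genes of like counts. Of all genes tested, 8.16% had a point ratio past 1.5-fold higher and 8.77% past 1.5-fold lower, against 4 and 0 of the 9 members. Past 2-fold, the shares of all genes were 4.02% higher and 3.8% lower, against 2 members higher (*Il12a* and *Il6*) and 0 lower.

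Among the 4003 genes with 10 to under 100 counts lie *Il12a*, *Il23a* and *Il6*. Of those genes 24.8% were past 1.5-fold higher and 13.7% past 2-fold higher, rules that *Il12a* and *Il6* both passed. Intervals above 1 made up 7.92% of the genes in that range and intervals below 1 made up 8.32%, against 2 and 0 of the 3 members.

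Among the 4640 genes with 100 to under 1000 counts lie *Il12b*, *Ebi3*, *Il27* and *Lif*. Of those genes 3.62% were past 1.5-fold higher, as *Il12b* and *Ebi3* were, and 0.733% past 2-fold higher, as 0 of the 4 members were. An interval above 1 was found for 12.4% of the genes in that range and for *Il12b* and *Ebi3*, and one below 1 for 15.2% and for *Il27*. *Il6ra* and *Il6st* lie among the 5249 genes with 1000 to under 10000 counts, of which 20.3% had an interval above 1, 21.1% below 1, 0.305% a point ratio past 1.5-fold higher and 0.0381% past 2-fold higher, and neither gene passed any of these rules. The members were chosen with earlier results of these libraries known, so the shares describe the group and test nothing.

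**Figure D3:**
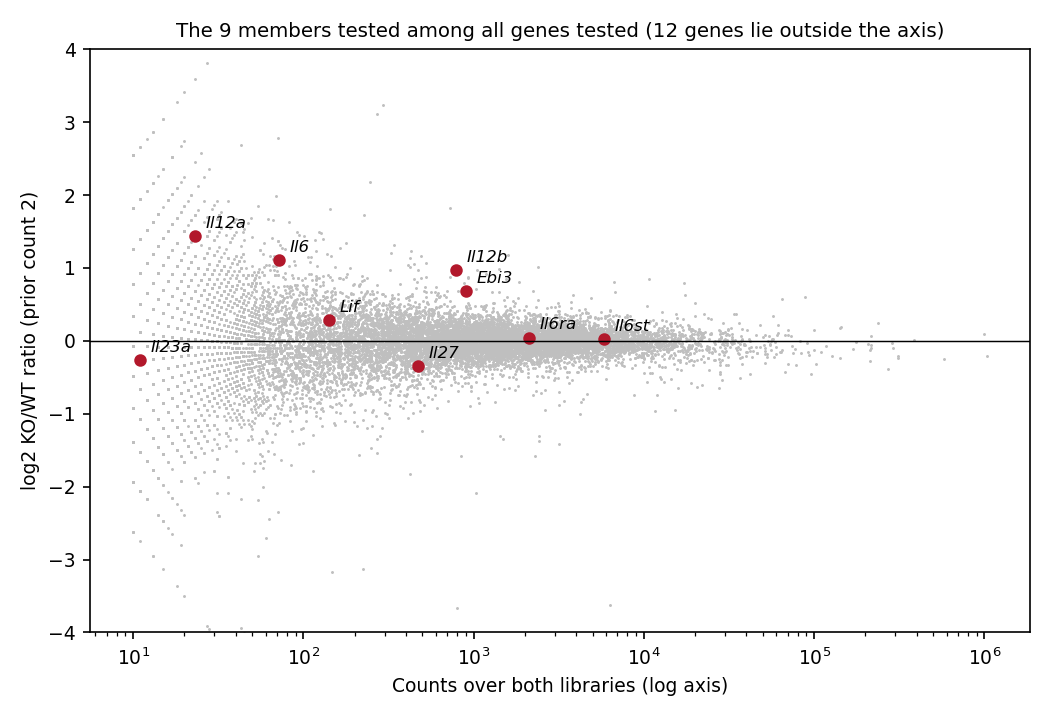
Log2 KO/WT ratio (prior count of 2) against the counts over both libraries (log axis) for all 14489 genes tested in grey and the 9 members tested in red. *Il12b* and *Ebi3* lie among the highest of the genes counted as often, *Il6* and *Il12a* lie where the ratios spread widely, *Il6ra* and *Il6st* lie on the centre line, and 12 genes fall outside the axis.

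Summed by role, the 5 IL-12 family chain genes had 1345 counts in FRβ KO and 853 in WT, with a ratio of 1.47 (1.35 to 1.60). The 2 ligand genes of the IL-6 family had 131 counts in FRβ KO and 82 in WT (ratio 1.49, 1.12 to 1.99). The 3 receptor chain genes had 4161 counts in FRβ KO and 3794 in WT (ratio 1.02, 0.978 to 1.07). Most counts of the IL-12 family sum came from *Il12b* and *Ebi3*. In bulk RNA, more cells that make a transcript and more transcript per cell cannot be told apart.

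Levels of different genes were compared per kilobase of exon (CPM divided by the exon length, RPKM, on the TMM-scaled library sizes). In FRβ KO the order began with *Ebi3* at 24.8 RPKM, followed by *Il6st* at 13.7, *Il12b* at 13.6, *Il27* at 10.6 and *Il6ra* at 6.44 RPKM. The intervals of *Il6st* and *Il12b* overlapped and the other neighbours among these 5 did not. In WT the order began with *Ebi3* at 15.4 RPKM, *Il27* at 13.5, *Il6st* at 13.5, *Il12b* at 6.90 and *Il6ra* at 6.25 RPKM, where the intervals of *Ebi3* and *Il27*, of *Il27* and *Il6st*, and of *Il12b* and *Il6ra* overlapped. *Il12b* overlapped *Il6st* in FRβ KO and *Il6ra* in WT. With the longest transcript as length, *Il6st* (17.5 RPKM) lay above *Il12b* (13.7 RPKM) in FRβ KO without overlap.

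The other members were far lower in both libraries. In FRβ KO, *Il6* stood at 1.05 RPKM, *Lif* at 0.920, *Il12a* at 0.529, *Il23a* at 0.111 and *Osmr* at 0.0289 RPKM. In WT, *Lif* stood at 0.752 RPKM, *Il6* at 0.464, *Il12a* at 0.158 and *Il23a* at 0.143 RPKM, with *Osmr* at 0. Of these neighbours, *Il12a* and *Il23a* had separate intervals in FRβ KO and overlapping ones in WT, and *Il6* and *Lif* overlapped in both libraries.

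The balance between the partner chains was taken as a ratio within each library, which does not depend on the scaling. Per kilobase, *Il27* was at 0.426 (0.363 to 0.499) of *Ebi3* in FRβ KO and at 0.875 (0.741 to 1.03) of it in WT. The balance of the IL-27 chains in FRβ KO was 0.487 of that in WT, with an exact interval of 0.386 to 0.614. This was the only one of the 5 gene pairs whose balance differed between the libraries beyond counting error.

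In both libraries p40 transcripts were in large excess over those of its partners. *Il12b* was 25.6-fold (16.1 to 43.5) above *Il12a* per kilobase in FRβ KO and 43.8-fold (18.5 to 136) above it in WT. Against *Il23a* the excess was 122-fold (51.9 to 377) in FRβ KO and 48.2-fold (21.8 to 133) in WT. The balance of *Il12a* to *Il12b* in FRβ KO was 1.71 times that in WT (0.602 to 5.95), that of *Il23a* to *Il12b* 0.396 times (0.0947 to 1.57), and that of *Il12a* to *Ebi3*, the chains of IL-35, 2.09 times (0.737 to 7.25), all intervals that hold 1. gp130 transcripts were above those of *Il6ra* by 2.13-fold (1.99 to 2.28) in FRβ KO and 2.16-fold (2.004 to 2.32) in WT, and this balance was 0.987 times that in WT (0.893 to 1.09).

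**Figure D4:**
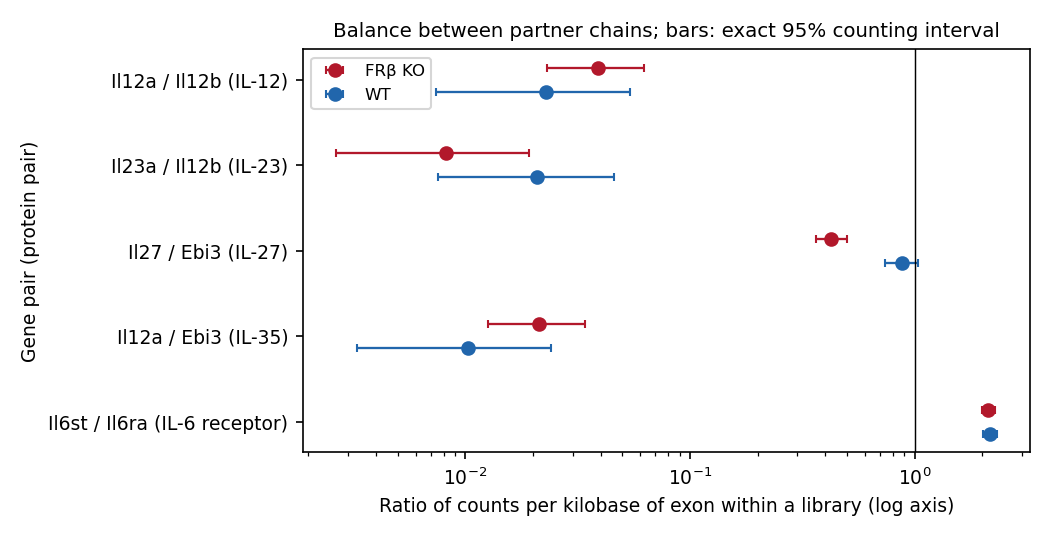
Ratio of counts per kilobase of exon between partner genes within each library (log axis), with FRβ KO in red above WT in blue and exact 95% counting intervals. *Il27* over *Ebi3* stands at 0.426 in FRβ KO and 0.875 in WT with separate intervals, and the other 4 pairs overlap.

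The 57 other genes of these pathways were read from 7 lists. Of these, 50 reached 10 counts, and 13 of them had an interval above 1 and 18 below 1, while 0 had a whole interval past 2-fold in either direction. With total-count scaling 16 were above and 15 below. These counts, and those of each list, stand beside 14.7% above and 16.8% below over all genes tested, and 20.3% above and 21.1% below among genes with 1000 to under 10000 counts. The shares rose with the counts. Several list genes, such as *Irf1*, *Irf8*, *Socs1* and *Il4ra*, had over 10000 counts over both libraries, a range for which no share was taken. Among the 8 other IL-6 family ligand and soluble partner genes, 2 were tested and *Il11* and *Il31* had 0 counts in both libraries. *Osm*, encoding oncostatin M, the ligand of *Osmr*, had 577 counts in FRβ KO and 456 in WT (ratio 1.18, 1.04 to 1.34). *Clcf1*, encoding cardiotrophin-like cytokine, had 674 and 716 counts in FRβ KO and WT (ratio 0.878, 0.789 to 0.976). The median log2 ratio of this pair was 0.02.

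Of the 8 other receptor chain genes 7 were tested, with 2 intervals above 1, 3 below 1 and a median log2 ratio of -0.02. *Lifr*, encoding the LIF receptor chain that pairs with gp130, had 16 counts in FRβ KO and 46 in WT, the lowest ratio among the 50 genes at 0.324 (0.171 to 0.584). *Il12rb2*, the signalling chain of the IL-12 receptor, had 264 counts in FRβ KO and 189 in WT (ratio 1.30, 1.08 to 1.58), and *Il23r* had 104 and 69 in FRβ KO and WT (ratio 1.41, 1.03 to 1.93). An exon stretch of *Il12rb2* is shared with its neighbour *Serbp1*, which had 1972 counts in FRβ KO and 1911 in WT. *Il11ra1*, the IL-11 receptor chain, had 1560 counts in FRβ KO and 1860 in WT (ratio 0.782, 0.731 to 0.837), a value that is uncertain because the near-identical copies *Il11ra2* and *Gm13305* could take part of its reads.

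The JAK-STAT list holds the kinases, factors and feedback inhibitors through which these receptors signal. Of its 12 genes, 2 had an interval above 1 and 6 below 1, against 14.7% and 16.8% of all genes, with a median log2 ratio of -0.06. *Stat4*, the factor that IL-12 activates in T and NK cells, had 76 counts in FRβ KO and 25 in WT (ratio 2.83, 1.78 to 4.65). It shares exon bases with *Gm28177*, which had 0 counts in FRβ KO and 1 in WT. The feedback inhibitor genes *Socs1* and *Socs3* were lower, with 6461 counts of *Socs1* in FRβ KO against 9454 in WT (ratio 0.637, 0.617 to 0.658) and 2545 counts of *Socs3* in FRβ KO against 3423 in WT (ratio 0.693, 0.658 to 0.730). *Cish*, a feedback inhibitor of the same family, was higher, with 440 counts in FRβ KO and 354 in WT (ratio 1.16, 1.005 to 1.34). *Jak2* had 3147 counts in FRβ KO and 3681 in WT (ratio 0.797, 0.760 to 0.836).

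Of 7 genes that respond to STAT3, the factor activated through gp130, 2 had an interval above 1 and 3 below 1, with a median log2 ratio of -0.09. Besides *Socs3*, these include *Il4ra*, with 11435 counts in FRβ KO and 12512 in WT (ratio 0.852, 0.831 to 0.874), and *Mcl1*, a survival gene, with 27368 and 24128 counts in FRβ KO and WT (ratio 1.06, 1.04 to 1.08). *Junb* had a ratio of 0.942 (0.912 to 0.972). Of 4 genes of the shedding of the IL-6 receptor from the cell surface (2 proteases, and 2 inactive rhomboids that regulate ADAM17), 1 had an interval above 1 and 0 below, with a median log2 ratio of 0.01. That gene was the protease gene *Adam10*, with 3511 counts in FRβ KO and 2764 in WT (ratio 1.18, 1.13 to 1.25).

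**Figure D5:**
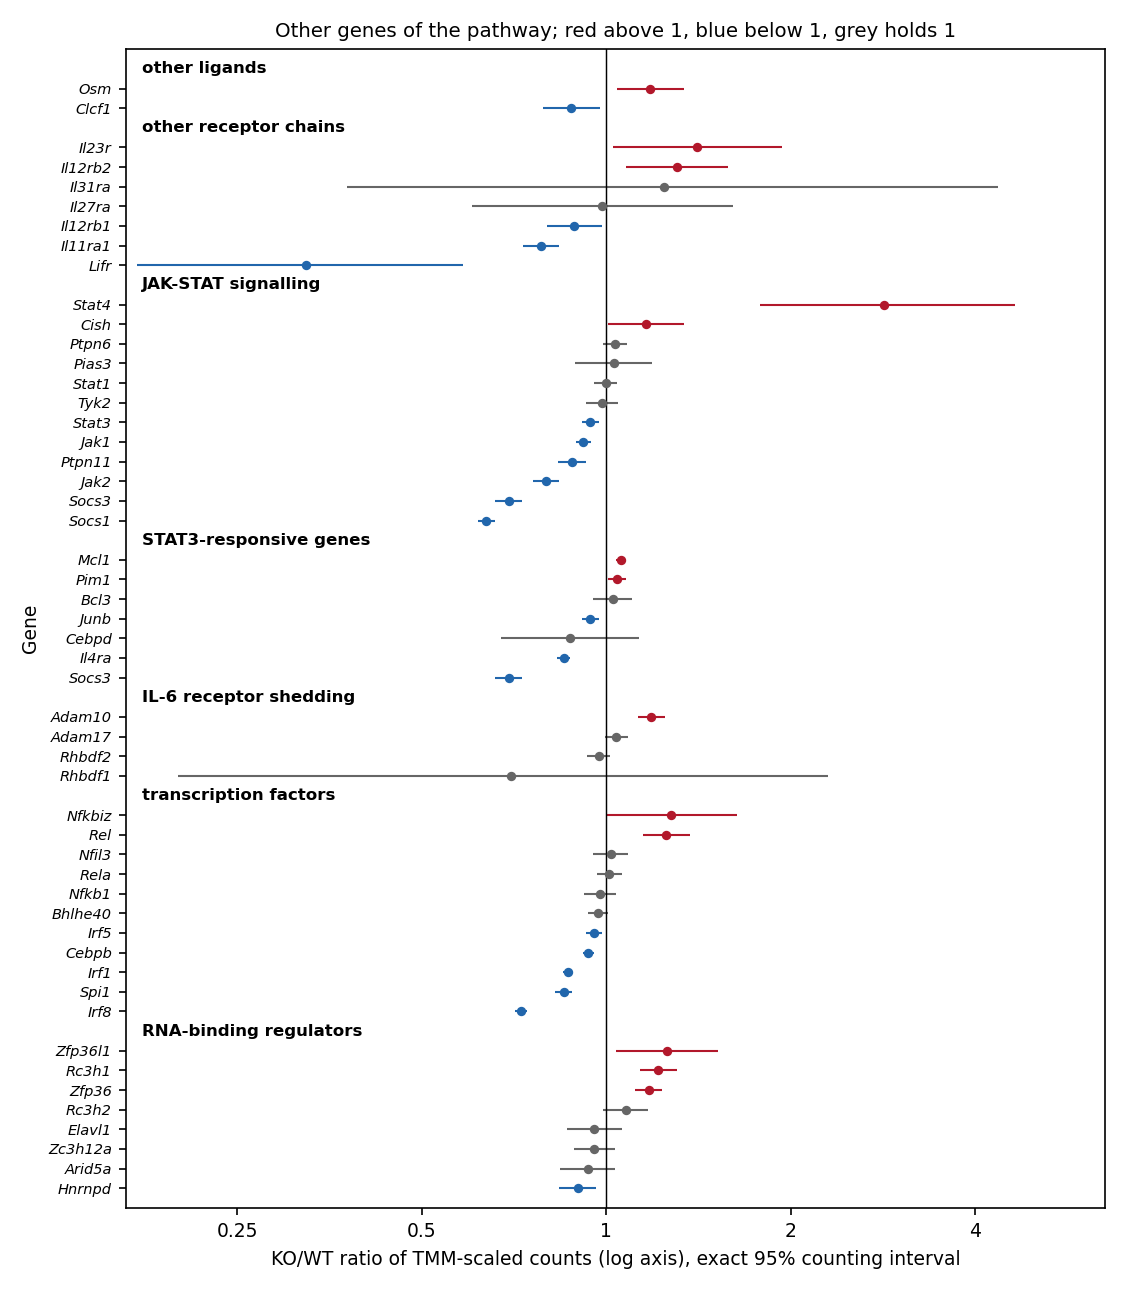
KO/WT ratio of TMM-scaled counts (log axis) with exact 95% counting intervals for the other pathway genes with at least 10 counts, grouped by list. *Stat4* at 2.83 and *Lifr* at 0.324 are the farthest from 1, and *Socs1*, *Socs3* and *Irf8* lie well below 1 with narrow intervals.

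Of 11 transcription factors known to control *Il6* or *Il12b*, 2 had an interval above 1 and 5 below 1, with a median log2 ratio of -0.04. *Rel*, encoding the NF-κB subunit c-Rel on which *Il12b* transcription in macrophages depends, had 1163 counts in FRβ KO and 865 in WT (ratio 1.25, 1.15 to 1.37). *Irf8*, an interferon-induced factor of the same gene, had 12268 counts in FRβ KO and 15748 in WT (ratio 0.726, 0.709 to 0.744). *Spi1*, encoding PU.1, had a ratio of 0.852 (0.825 to 0.880) and *Irf1* a ratio of 0.866 (0.849 to 0.883).

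Of 8 RNA-binding proteins that act on *Il6* or *Il12b* transcripts, 3 had an interval above 1 and 1 below 1, with a median log2 ratio of 0.02. *Rc3h1*, encoding Roquin, which destabilizes cytokine transcripts, had 1813 counts in FRβ KO and 1390 in WT (ratio 1.22, 1.13 to 1.31). *Zfp36*, encoding tristetraprolin, had 3312 counts in FRβ KO and 2633 in WT (ratio 1.17, 1.11 to 1.24), and its relative *Zfp36l1* had 259 and 192 in FRβ KO and WT (ratio 1.26, 1.04 to 1.52). *Hnrnpd* had a ratio of 0.899 (0.839 to 0.963).

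Dendritic cells also transcribe *Il12b* and *Ebi3*, so their markers were read beside those genes. Of 7 markers, 2 had an interval above 1 (*Ccr7* and *Clec9a*), 2 below 1 (*Itgax* and *Zbtb46*), 2 an interval that held 1, and *Siglech* had 0 counts in both libraries. Over all genes tested, 14.7% had an interval above 1 and 16.8% below 1. The summed level of the dendritic cell markers was 319 CPM in FRβ KO and 415.6 CPM in WT. Most of it came from *Itgax* (267.4 CPM in FRβ KO and 377.9 CPM in WT), so the sum follows that gene. Of the 6 markers tested, 4 had a point ratio above 1 and 2 below 1. *Ccr7* had 482 counts in FRβ KO and 245 in WT (ratio 1.83, 1.57 to 2.15) and *Clec9a* 339 and 237 in FRβ KO and WT (ratio 1.33, 1.13 to 1.58). The 7 markers of neutrophils and their precursors summed to 21.3 CPM in FRβ KO and 36.3 CPM in WT. Nearly all of it came from *S100a8*, at 20.4 CPM in FRβ KO and 35.0 CPM in WT. *S100a9* had only 6 counts in FRβ KO and 7 in WT. Of the 7 markers, 4 were tested, with 0 intervals above 1 and 1 below 1 (*S100a8*), and *Retnlg* had 0 counts in both libraries. The part of dendritic cells and neutrophils in the *Il12b* and *Ebi3* results was not tested.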

How the data were processed

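The deposited table holds raw read counts for each gene. Per the labels and the methods, the authors aligned paired-end reads to mm10 with HISAT2 after quality trimming, and the sequencing provider counted reads per gene. Neither the counting program, the annotation release nor the strand setting was given in the sources used here. For their own comparison the authors used edgeR, which the submitters' processing notes name with HISAT2.

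Symbols and coordinates came from GENCODE M21 (GRCm38, mm10), without a match for 37 of the 54532 identifiers. For a symbol with several identifiers, the most counted one was kept. TMM scaling (edgeR 4.0.16 under R 4.3.3) gave FRβ KO a library size 1.07 times that of WT. KO/WT ratios carry exact (Clopper-Pearson) 95% intervals, and levels exact Poisson intervals (Python 3.11.15, scipy 1.17.1). Intervals of the chain balance are exact conditional intervals of the odds ratio. No molecular identifiers are named in the sources, so all intervals and floors cover counting error only. With 1 library per genotype no p-value is given. Log2 ratios used a prior count of 2. Exon lengths are unions of annotated exons. A search for near-identical copies used blastn 2.17.0 at 95% identity over at least 100 bases, and 0 of the 10 members had one outside overlapping genes. The interval script was tested on simulated data.

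The members and lists were chosen with earlier results of these data known. Named are all members, *Folr2*, and up to 4 genes of each pathway list whose interval leaves out 1, taken by the bound nearest to 1. *Cish* was named besides these, next to the other feedback inhibitor genes of its family. Other genes, such as markers, overlapping neighbours and copies, were named where a result touches them. No gene was named for likeness of pattern, since 2 libraries give no measure of it. Alternatives were scaling by DESeq2 1.42.0 size factors, by the upper quartile or by totals, other prior counts, count minimums, fold limits and interval levels, and the longest transcript as length.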

Additional observations from a re-analysis of the deposited data

How the results depend on the processing

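With scaling by DESeq2 size factors, the upper quartile or totals, which moved all log2 ratios up by at most 0.04, and with prior counts of 0.5 and 5, the log2 ratio of each of the 10 members kept its sign and stayed within its counting interval, from 0.96 to 1.00 for *Il12b*, 0.68 to 0.72 for *Ebi3*, 1.02 to 1.16 for *Il6* and -0.35 to -0.31 for *Il27*. The ranges of the rarest members were wider, from 1.14 to 1.66 for *Il12a* and 1.23 to 3.86 for *Osmr*. With a 99% interval, *Il12a* and *Osmr* held 1, while *Il12b*, *Ebi3* and *Il6* stayed above 1 and *Il27* below 1. The 99% upper log2 bound of *Il27* was only -0.0036. The other scalings moved log2 ratios up by 0.011 to 0.036, so at 99% its place below 1 rests on TMM. The 99% interval left 8 in place of 13 pathway genes above 1, 1408 in place of 2137 of all genes above 1, and 21 in place of 45 higher and 38 in place of 59 lower genes past 2-fold. A 1.5-fold limit on the whole interval passed 1 member (*Il12b*), 1 higher and 2 lower pathway genes, and 136 higher and 155 lower genes of all. A 2-fold limit on the point ratio alone passed 2 members (*Il12a* and *Il6*), 1 higher and 1 lower pathway gene (*Stat4* and *Lifr*), and 583 higher and 551 lower genes of all. A minimum of 50 counts left 16 higher and 29 lower genes of all past 2-fold, since fewer genes were tested, and moved the median log2 ratio to -0.10 over the other receptor chains and 0.06 over the shedding genes. With the longest transcript as length, *Il6st* over *Il6ra* was 2.72 in FRβ KO and 2.76 in WT, and *Il6st* stood above *Ebi3* in WT (17.2 and 15.4 RPKM). *Il12a*, *Il23a* and *Osmr* are limited by depth. No paired analysis was possible because each genotype has 1 library, and none could be left out.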
